A study of Mus musculus with 16 samples.

Results

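The insulin-like growth factor (IGF) genes measured on these arrays are the ligand Igf1, its receptor Igf1r and the binding proteins Igfbp3, Igfbp4, Igfbp5, Igfbp6 and Igfbp7. They were taken by gene symbol from a list of 9 genes, which was chosen with earlier results of these data known. No probe carried the symbol or the accession of Igf2 or Igfbp2, and these genes are not analysed here. The other 7 genes had 18 of the 24040 probes in the table, and 6 of them, all but Igf1r, were among the 10426 genes tested.

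The samples were tumour pericytes and tumour endothelial cells. They were isolated by flow cytometry from tumours of 67NR, a mouse mammary carcinoma line, and profiled without culture. The hosts were female BALB/c Ub-GFP mice of 6 to 8 weeks, either wild type or knockout for endosialin, the membrane glycoprotein encoded by Cd248. All hosts, controls included, carried the Ub-GFP transgene, and in all of them the tumours were taken from the mammary fat pad at a mean diameter of 10 mm, after 2 to 4 weeks. Both cell types came from both genotypes, which gives 4 groups of 4 arrays. The sources used here do not give the sorting gate, the type of knockout allele or how many mice stand behind an array, so the p-values cover the spread between these arrays, which may be technical.

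IGF-I is a secreted growth and survival factor that signals through the receptor tyrosine kinase encoded by Igf1r, and from there through the insulin receptor substrates to PI3-kinase and AKT. In tissue fluid most of it is held by binding proteins, which carry it, keep it from the receptor or release it when proteases cut them. Fibroblasts and other stromal cells are known local sources of IGF-I, and both stromal and endothelial cells are known to secrete binding proteins.

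Values are the authors' normalised log2 intensities, on which array medians lay between 7.18 and 7.21. Differences were tested with limma on all 16 arrays, and a gene was called when its p-value, adjusted over all 10426 genes with the Benjamini-Hochberg method, was under 0.05. Correlations across genes were 0.916 to 0.979 between arrays of 1 group and 0.695 to 0.784 between cell types. The wild-type pericyte arrays had Cd248 at 10.98 ± 0.21 and the knockout pericyte arrays at 7.09 ± 0.10 (SD, n = 4), and it was at 7.04 and 7.27 in the endothelial groups. The endothelial marker list was lower in the pericyte arrays for 15 of 15 genes. Of 12 pericyte markers, 8 were called higher in wild-type pericytes and 1, Mcam, was called lower there. All 12 fibroblast markers were also called higher in the pericyte arrays of both genotypes. Their array means were 10.07 to 10.78 there against 6.82 to 7.01 in the endothelial arrays. The pericyte arrays thus carried fibroblast transcripts throughout. In wild type, 9 of the 15 endothelial, 5 of the 8 pericyte and 10 of the 12 fibroblast calls were of genes below the array median on every array of the lower cell type. Pecam1, Tek, Flt1 and Emcn, and the fibroblast genes Col3a1 and Thy1, were above it there on only 1 to 3 arrays. The filter on dim probes asks for 4. All of these genes thus passed the filter only through the arrays where they were high, so they add nothing to these counts. In the fit over every probe, which has no filter, each of these calls was also made in wild type. Of all genes, 17.1% were called higher in wild-type pericytes and 19.1% lower, and 17.4% and 18.5% in knockout. Knockout pericyte arrays 2, 3 and 4 had keratinocyte marker means of 9.05 to 9.47, against 7.43 in knockout array 1 and 6.94 to 7.69 in the wild-type pericyte arrays.

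The 6 tested genes differed between the cell types in both genotypes and were not called between the genotypes in either cell type. Igfbp3 was far higher in endothelial cells, and Igfbp7 was slightly higher there. Igf1, Igfbp4, Igfbp5 and Igfbp6 were higher in the pericyte arrays. Called higher in pericytes were 4 genes and called lower were 2, in wild type as in knockout. One of the 4, Igfbp6, entered the test only through the pericyte arrays, which leaves 3 higher calls to read. Across all genes, 36.2% were called in wild type, 17.1% higher and 19.1% lower in pericytes, and 35.9% were called in knockout, 17.4% higher and 18.5% lower. A cell type call alone was therefore common on these arrays, and the sizes carry more information: over all genes the median absolute difference was 0.20 log2 units in both genotypes. The arrays of the cell types did not overlap for 5 of the 6 genes in wild type, the exception being Igf1, and for 6 of 6 in knockout. Igfbp6 is in both counts and adds nothing to either, as it entered only through the pericyte arrays. Of all genes, 33.6% did not overlap in wild type and 36.6% in knockout. In sorted bulk RNA, fewer cells that express a gene and less of its RNA per cell cannot be told apart.

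**Figure D1:**
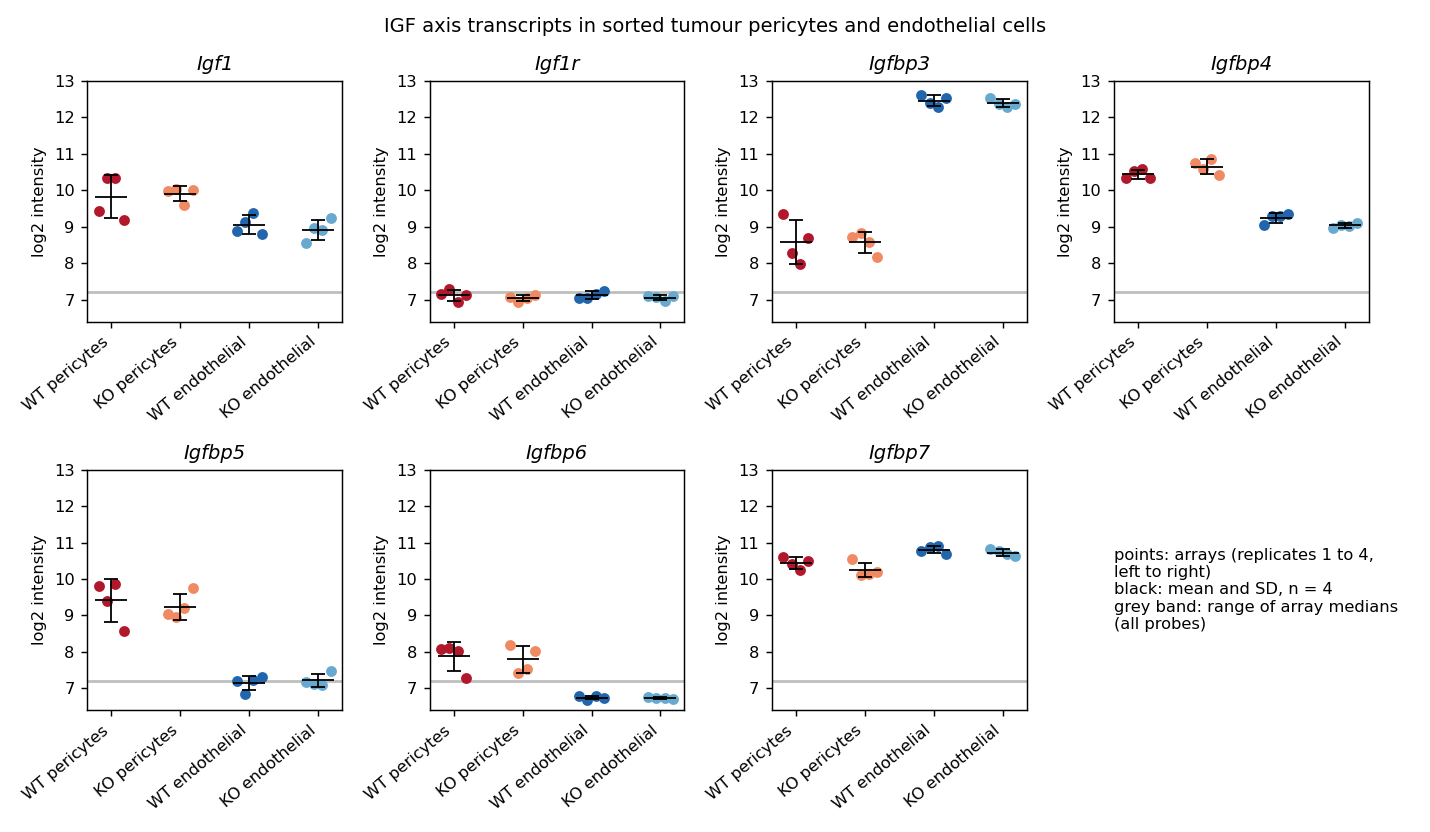
Log2 intensity of the 7 measured IGF genes on every array, with 1 panel per gene and the same vertical axis in each. Points are arrays, black marks are the mean and SD of 4 arrays, and the grey band is the range of array medians; Igfbp3 sits above 12 in all endothelial arrays and below 9.4 in all pericyte arrays, while all Igf1r points lie close to the grey band.

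Of the ligands, Igf1 was above the array median on all 16 arrays by its brightest probe. In wild-type pericytes this probe read 9.44, 10.34, 10.33 and 9.19 on arrays 1 to 4, and in knockout pericytes 9.98, 10.03, 9.60 and 10.02. In endothelial cells it read 8.88, 9.14, 9.38 and 8.81 in wild type and 8.56, 8.96, 8.92 and 9.23 in knockout. By mean, knockout pericytes came first, then wild-type pericytes, then the wild-type and last the knockout endothelial cells, and only the step between the cell types passed the test. In wild type, pericyte array 4 lay below the highest endothelial array, so those groups overlapped. In knockout, all pericyte arrays lay above all endothelial arrays.

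Igf1 was 1.71-fold higher in pericytes than in endothelial cells of wild-type tumours, with a log2 difference of 0.77 (SE 0.22) and a limma adjusted p of 0.0110. In knockout tumours it was 1.98-fold higher, with a log2 difference of 0.99 (SE 0.22) and an adjusted p of 0.00176. Other Igf1 probes gave smaller values when every probe was a feature of the fit, where 25.9% and 26.5% of probes were called in wild type and knockout. The probe of middle brightness gave 0.35 in wild type, which was not called (adjusted p = 0.195), and 0.65 in knockout (adjusted p = 0.0159). The dimmest probe, annotated to another transcript accession and above the array median on 2 of 16 arrays, gave 0.07 and 0.06 and was called in neither. The Igf1 call in knockout ended when pericyte arrays 2, 3 and 4 were left out together, at 1.06 (adjusted p = 0.0571), which leaves 1 knockout pericyte array, and when the keratinocyte marker mean entered the fit, at 0.96 (adjusted p = 0.130).

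The Igf1 spread among wild-type pericyte arrays ran beside that of other marker lists. Arrays 2 and 3, the higher ones for Igf1, had fibroblast marker means of 10.78 and 10.71, and arrays 1 and 4 had 10.34 and 10.07. The pericyte marker means ran the other way, with 8.58 and 8.73 on arrays 2 and 3 and 9.48 and 9.81 on arrays 1 and 4. Without arrays 1 and 4 the wild-type cell type difference of Igf1 was 1.28 log2 units, more than 1.5 times the value with all arrays. These arrays, chosen after seeing the data, had the lowest Igf1 values of the group, so the rise was fixed by the choice. The part of cell composition in these values was not tested.

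The receptor gene Igf1r stayed near the floor of the scale. Its brighter probe read 7.14, 7.30, 6.94 and 7.12 in wild-type pericytes and 7.07, 6.94, 7.05 and 7.13 in knockout pericytes. It read 7.06, 7.04, 7.16 and 7.25 in wild-type endothelial cells and 7.09, 7.08, 6.96 and 7.11 in knockout endothelial cells. All 4 groups overlapped and no order among them could be read. The probe lay above the array median on 2 of 16 arrays and the other probe on 0 of 16, so neither was kept, and in the fit over all probes no comparison of either was called. Values this close to the floor do not show that the receptor was absent.

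**Figure D2:**
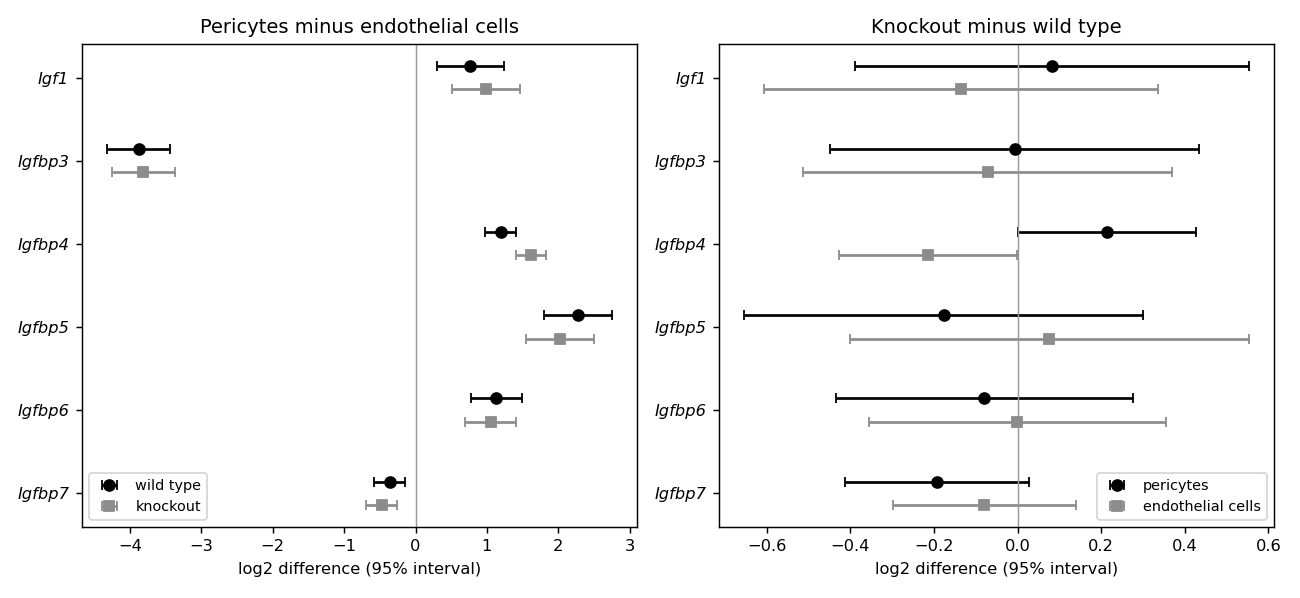
Log2 differences of the 6 tested IGF genes with 95% intervals, pericytes minus endothelial cells on the left and knockout minus wild type on the right, on separate horizontal scales. On the left Igfbp3 lies near -3.8 to -3.9 and Igfbp5 near 2.0 to 2.3 in both genotypes; on the right no value is larger than 0.21 in size, and every interval but those of Igfbp4, whose near ends lie at 0.00, spans 0.

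Igfbp3 encodes the main carrier of IGF-I in serum and is also made by endothelial cells. In endothelial cells it read 12.63, 12.39, 12.29 and 12.52 in wild type and 12.53, 12.38, 12.28 and 12.36 in knockout. In pericytes it read 9.36, 8.28, 7.99 and 8.69 in wild type and 8.71, 8.83, 8.58 and 8.16 in knockout. The endothelial arrays were all high and close together, the pericyte arrays were all low and more spread, and the cell types did not overlap in either genotype.

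Igfbp3 was 14.7-fold lower in pericytes than in endothelial cells of wild-type tumours (95% interval 10.8 to 20.0), a log2 difference of -3.88 (SE 0.21) with a limma adjusted p of 4.05e-11. In knockout tumours it was 14.1-fold lower, with -3.82 (adjusted p = 5.17e-11). By absolute difference it ranked 19 of 10426 genes in wild type and 18 in knockout. Its other probe gave -3.78 and -3.74 and followed the first with r = 0.998 over the 16 arrays. Among wild-type pericytes the highest Igfbp3 values were on arrays 1 and 4, at 9.36 and 8.69, against 8.28 and 7.99 on arrays 2 and 3. The endothelial marker mean was 7.13 and 7.21 on arrays 1 and 4 and 6.98 and 6.99 on arrays 2 and 3, a gap carried by Esam, Emcn and Flt1 of the 15 genes. Esam read 9.11 and 9.60 on arrays 1 and 4 and 8.13 and 7.91 on arrays 2 and 3. The defining markers Pecam1 and Cdh5 lay below the array median on all 4 arrays, at 6.71 to 6.93 and 6.90 to 6.99. Pericyte marker means were also higher on arrays 1 and 4, at 9.48 and 9.81, against 8.58 and 8.73 on arrays 2 and 3. Fibroblast marker means ran the other way, at 10.34 and 10.07 against 10.78 and 10.71. The part of cell composition in the Igfbp3 spread was not tested.

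Igfbp7 encodes a protein of the same family that binds IGFs weakly and is known from vascular basement membranes, and it showed a much smaller difference in the same direction. Its brightest probe read 10.76, 10.88, 10.89 and 10.69 in wild-type endothelial cells and 10.83, 10.78, 10.68 and 10.62 in knockout endothelial cells. In pericytes it read 10.62, 10.42, 10.24 and 10.49 in wild type and 10.55, 10.11, 10.15 and 10.20 in knockout. Pericyte arrays were lower than endothelial arrays without overlap in each genotype, the nearest arrays being at 10.62 and 10.69 in wild type and at 10.55 and 10.62 in knockout. Igfbp7 was 1.29-fold lower in pericytes of wild-type tumours, with a log2 difference of -0.36 (SE 0.10, limma adjusted p = 0.0103), and 1.39-fold lower in knockout, with -0.48 (adjusted p = 0.00132).

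All 5 Igfbp7 probes gave the same direction, from -0.36 to -0.48 in wild type and from -0.33 to -0.48 in knockout, and each was called in the fit over all probes. The knockout call ended when pericyte arrays 2, 3 and 4 were left out together, at -0.18 (adjusted p = 0.481), and with the keratinocyte marker mean in the fit, at -0.04 (adjusted p = 0.905). Those arrays were chosen for their high keratinocyte marker means, so the single remaining knockout pericyte array, with 10.55, had the lowest mean by choice. The part of cell composition in the Igfbp7 values was not tested. The wild-type call stood at -0.36 (adjusted p = 0.00782) when those knockout arrays were left out.

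Igfbp4 encodes a binding protein that is known mainly as an inhibitor of IGF action and as the substrate of the protease encoded by Pappa. It was high in every pericyte array, at 10.33, 10.52, 10.58 and 10.33 in wild type and 10.74, 10.60, 10.86 and 10.41 in knockout. In endothelial cells it read 9.05, 9.30, 9.28 and 9.36 in wild type and 8.97, 9.04, 9.03 and 9.11 in knockout. In both genotypes every pericyte array lay above every endothelial array, and within a cell type the genotypes overlapped.

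Igfbp4 was 2.28-fold higher in pericytes of wild-type tumours, with a log2 difference of 1.19 (SE 0.10, limma adjusted p = 2.21e-08), and 3.07-fold higher in knockout, with 1.62 (adjusted p = 3.10e-10). The dimmer probe gave 0.75 and 1.04. The larger value in knockout came from both cell types: the knockout mean was 0.21 above wild type in pericytes and 0.21 below it in endothelial cells. These effects differed by 0.43 (SE 0.14), with an unadjusted p of 0.00810 and an adjusted p of 1.00 in limma, so it was not called. The dimmer probe gave 0.22 in pericytes and -0.06 in endothelial cells for the same genotype comparisons.

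Igfbp5 encodes a matrix-associated binding protein of stromal and smooth muscle cells. It read 9.82, 9.39, 9.88 and 8.59 in wild-type pericytes and 9.03, 8.96, 9.21 and 9.76 in knockout pericytes. In endothelial cells it was near the array median, at 7.19, 6.85, 7.22 and 7.31 in wild type and 7.16, 7.13, 7.10 and 7.49 in knockout. The pericyte arrays were all higher, with wild-type array 4 the lowest of them. Igfbp5 was 4.84-fold higher in pericytes of wild-type tumours, with a log2 difference of 2.27 (SE 0.23, limma adjusted p = 1.83e-07), and 4.06-fold higher in knockout, with 2.02 (adjusted p = 8.91e-07). Its other probes gave 2.33 and 1.67 in wild type and 2.05 and 1.51 in knockout. These sizes and folds are set against endothelial values near the floor of the scale.

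Igfbp6 encodes a binding protein that prefers IGF-II over IGF-I, and it has 1 probe here. It read 8.07, 8.11, 8.02 and 7.30 in wild-type pericytes and 8.19, 7.42, 7.54 and 8.03 in knockout pericytes. In endothelial cells it read 6.78, 6.68, 6.78 and 6.73 in wild type and 6.76, 6.75, 6.74 and 6.71 in knockout, below the array median on all 8 arrays. The gene thus passed the filter on dim probes only through the pericyte arrays, so the test after the filter is not used for it. In the fit over every probe, which applies no filter, its log2 difference was 1.13 in wild type (limma adjusted p = 7.92e-05) and 1.05 in knockout (adjusted p = 0.000165). The endothelial level lay near the floor of the scale, so no fold is given.

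The pericyte spread of Igfbp6 was wide for its level. Wild-type array 4 and knockout arrays 2 and 3, at 7.30, 7.42 and 7.54, were lower than the other 5 pericyte arrays, which lay at 8.02 to 8.19. The same 3 arrays had fibroblast marker means of 10.07, 10.37 and 10.35, with 10.34 to 10.78 on the other 5. Their mast cell marker means were 10.32, 9.12 and 9.95, while wild-type arrays 1, 2 and 3 had 6.96, 7.75 and 9.61 and knockout arrays 1 and 4 had 7.14 and 9.04. The mean of 2 lymphocyte markers was 7.92, 8.34 and 8.26 on them and 7.42 to 8.12 on the others. Fibroblast means thus tended to be lower on these 3 arrays, and mast cell and lymphocyte means higher. In each list their values overlapped those of the other 5 arrays. The part of other cells in the Igfbp6 spread was not tested.

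**Figure D3:**
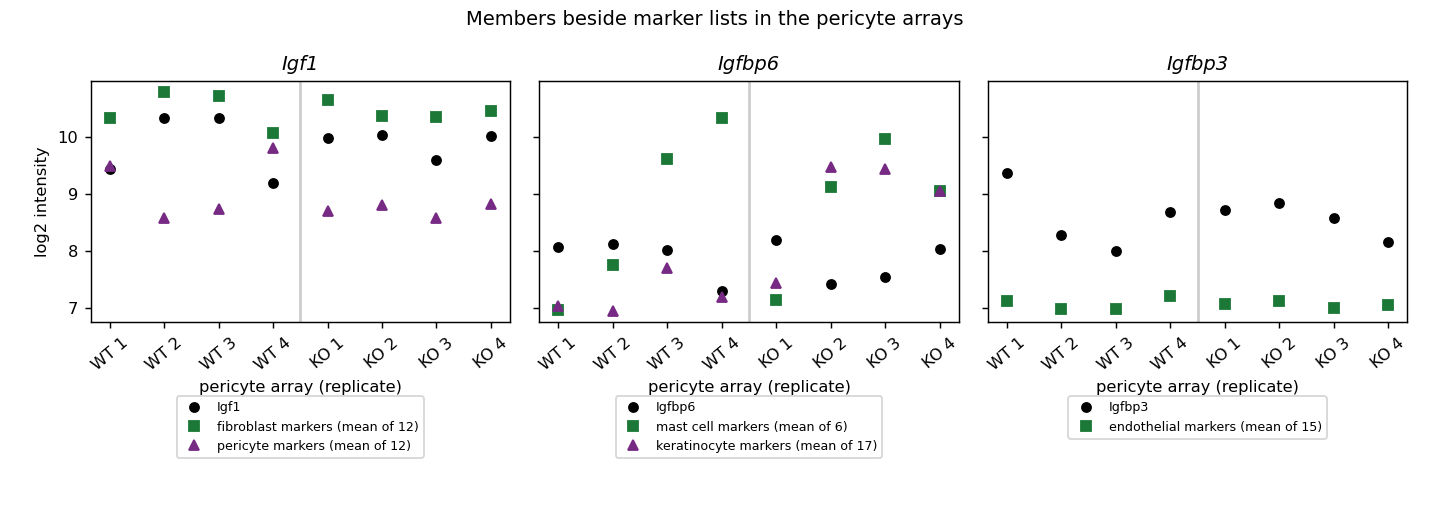
Log2 intensity of Igf1, Igfbp6 and Igfbp3 on the 8 pericyte arrays beside mean log2 intensities of marker lists on the same arrays, the number of genes in each list given in the legend. In wild type, Igf1 is highest on arrays 2 and 3, as are the fibroblast markers, and pericyte markers are highest on arrays 1 and 4; keratinocyte markers are above 9 on knockout arrays 2, 3 and 4.

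Probes of the same gene allowed a check of these directions. In the fit over all probes, 7 of the 18 member probes were called higher in pericytes and 7 lower in wild type, and 8 and 7 in knockout. Of all probes, 12.5% were called higher and 13.4% lower in wild type, and 13.1% and 13.4% in knockout. The probes not called were both Igf1r probes, the dimmest Igf1 probe and, in wild type, the Igf1 probe of middle brightness. No probe of Igfbp3, Igfbp4, Igfbp5, Igfbp6 or Igfbp7 went against the direction of the brightest probe of its gene.

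**Figure D4:**
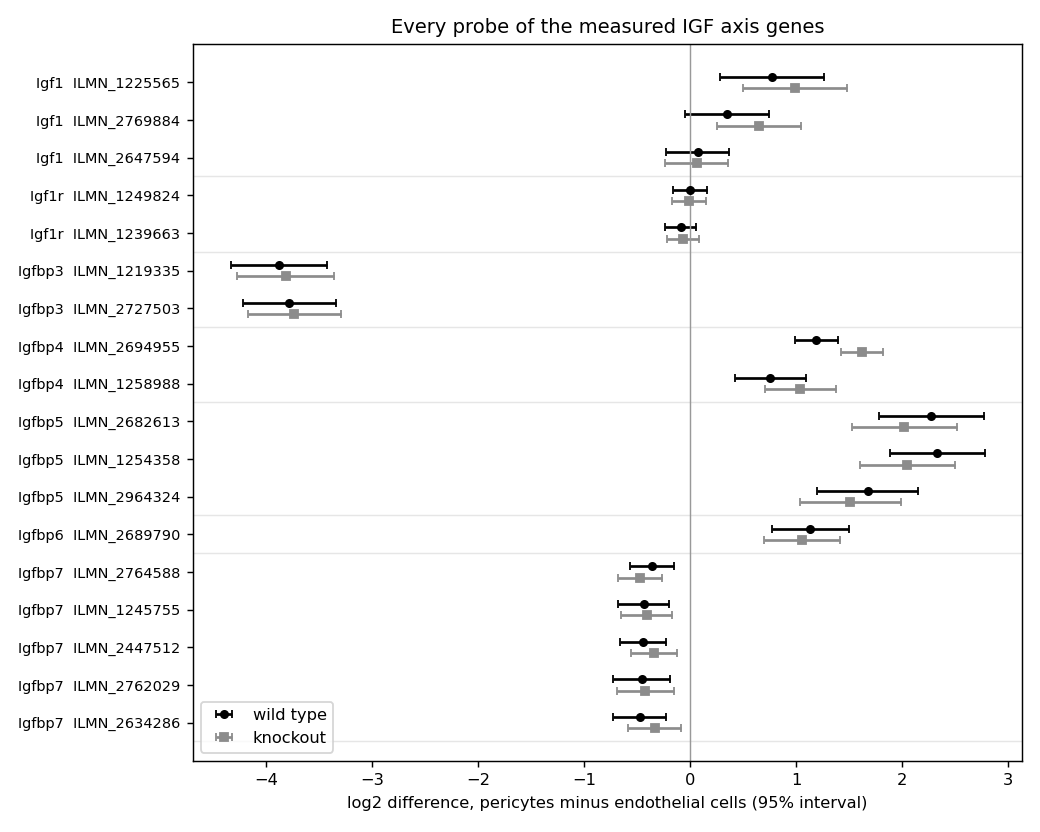
Log2 difference, pericytes minus endothelial cells, of each of the 18 probes of the 7 measured IGF genes with 95% intervals, in wild type and knockout. Probes of Igfbp3, Igfbp4, Igfbp5 and Igfbp7 each fall on 1 side of 0, both Igf1r probes lie at 0, and the 3 Igf1 probes run from 0.06 to 0.99.

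The promoter sequences of 4 of these genes are shown because the genes part the cell types in opposite directions: Igfbp3 toward endothelial cells, and Igf1, Igfbp4 and Igfbp5 toward pericytes. They are the 250 bases before the annotated start in RefSeq, build GRCm38.p6, written 5′ to 3′ on the gene's strand. They lie at chr11:7213924-7214173 (minus strand) for Igfbp3, chr11:99040994-99041243 (plus strand) for Igfbp4, chr1:72874866-72875115 (minus strand) for Igfbp5 and chr10:87860861-87861110 (plus strand) for Igf1. Capitals mark matches on either strand to TATANA, the core of a TATA box, or to TGANTCA, the AP-1 element. GGGCGG, the core of a GC box, and ACGTG, part of an E-box and of the hypoxia element, were searched in the same way and had no match in these 4 sequences.
Igfbp3: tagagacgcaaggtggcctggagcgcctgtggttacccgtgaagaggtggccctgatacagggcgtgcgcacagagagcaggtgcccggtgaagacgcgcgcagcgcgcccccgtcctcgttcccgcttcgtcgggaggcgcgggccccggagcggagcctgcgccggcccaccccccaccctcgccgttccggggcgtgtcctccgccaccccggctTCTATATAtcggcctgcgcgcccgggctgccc
Igfbp4: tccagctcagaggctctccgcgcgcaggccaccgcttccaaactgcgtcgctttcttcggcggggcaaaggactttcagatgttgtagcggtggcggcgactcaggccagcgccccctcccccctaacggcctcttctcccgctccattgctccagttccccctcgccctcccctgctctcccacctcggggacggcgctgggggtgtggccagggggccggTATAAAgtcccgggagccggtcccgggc
Igfbp5: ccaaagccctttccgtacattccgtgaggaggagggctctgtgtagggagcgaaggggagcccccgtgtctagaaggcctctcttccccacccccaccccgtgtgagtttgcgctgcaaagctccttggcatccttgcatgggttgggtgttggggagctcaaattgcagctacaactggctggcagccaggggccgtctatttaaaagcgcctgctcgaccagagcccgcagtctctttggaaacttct
Igf1: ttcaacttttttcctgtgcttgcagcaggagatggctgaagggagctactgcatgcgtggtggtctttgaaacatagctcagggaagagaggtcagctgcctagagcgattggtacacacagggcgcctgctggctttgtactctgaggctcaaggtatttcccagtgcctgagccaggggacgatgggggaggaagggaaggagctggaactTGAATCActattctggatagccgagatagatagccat
Igfbp3 and Igfbp4, which differ in opposite directions between the cell types, both hold a TATANA match close to the start, with its first base 30 and 28 bases before it; the capitals in Igfbp3 are 2 overlapping matches. TATANA was present in 22.6% of the 32851 mouse promoters of the same length. The Igfbp5 sequence matched none of the 4 motifs. Igf1 held 1 TGANTCA match, 37 bases before the start, and 6.75% of all promoters held one. GC content was 73.2% for Igfbp3, 69.2% for Igfbp4, 58.8% for Igfbp5 and 52.8% for Igf1, beside a median of 52.4% for all promoters. Of the other tested genes, Igfbp6 held 2 overlapping TATANA matches, 146 bases before its start, and Igfbp7 held 4 GGGCGG matches and 1 ACGTG match, motifs present in 32.7% and 16.6% of all promoters. A match describes the letters of the sequence only.

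The comparison of knockout with wild type asks whether loss of endosialin goes with a change of the IGF genes. In pericytes 0 of the 6 tested genes were called by limma, while 0.317% of all genes were called. In endothelial cells 0 of 6 were called, beside 0.00959% of all genes, and 0 of 6 were called for the difference between the cell types in the knockout effect, beside 0.0192%. At an unadjusted limma p under 0.05 there was 1 gene in each of these 3 comparisons, Igfbp4 each time. Of all 10426 genes, 743, 387 and 390 were under that cut in the same order. The third comparison is the difference of the first 2, so its result for Igfbp4 is not separate evidence. With every probe as a feature, 0 of the 18 probes were called in each of the 3 comparisons, beside 0.0666%, 0.0166% and 0.00832% of all probes. The genotypes overlapped for all 6 genes in both cell types, where 3.01% of all genes in pericytes and 2.00% in endothelial cells did not overlap.

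The intervals show what sizes of change remain possible. For Igf1 in pericytes the knockout minus wild-type difference was 0.08 with a 95% interval of -0.39 to 0.55, and in endothelial cells it was -0.13 with -0.61 to 0.34. For Igfbp3 it was -0.01 in pericytes (-0.45 to 0.43) and -0.07 in endothelial cells (-0.51 to 0.37), so a change beyond 1.43-fold lay outside both. For Igfbp5 in pericytes it was -0.18 (-0.65 to 0.30), and it moved to -0.45 without wild-type array 4 and to -0.02 without wild-type array 3. For Igfbp6 it was -0.08 (-0.43 to 0.28). Igfbp7 in pericytes was 0.19 lower in knockout, with an interval of -0.41 to 0.03 and a limma adjusted p of 0.765, and Igfbp4 in pericytes was 0.21 higher, with an adjusted p of 0.697.

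The pericyte directions of Igf1 and the smaller effects turned with the arrays used. Without wild-type arrays 1 and 4 the Igf1 difference in pericytes was -0.43 (adjusted p = 0.305) and that of Igfbp3 was 0.44 (adjusted p = 0.221). Those arrays had the lowest Igf1 and the highest Igfbp3 values of their group, so the direction of both shifts was fixed by the choice. Without knockout arrays 2, 3 and 4 the differences of Igfbp3, Igfbp6 and Igfbp7 were 0.14, 0.31 and 0.10, none of them called. These last values rest on 1 knockout pericyte array, which is assumed to vary like the arrays of the other groups. For none of these genes was a genotype call made under any alternative tried, and a p-value that misses the threshold does not show that the genotypes are alike.

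Other genes of the pathway were read from lists chosen by function. Beside each count of calls stand the shares of all genes, 17.1% higher and 19.1% lower in wild type and 17.4% and 18.5% in knockout. Of the genes named below, Sort1, Htra3, Mmp2, Irs1, Irs2, H19 and Wisp2 were below the array median on all 8 endothelial arrays and passed the filter only through pericytes. Their higher calls thus add nothing to a count or a median, and their sizes are set against values near the floor. Each was also called in both genotypes in the fit over every probe, which has no filter. Lrp1, Stc2 and Igf2bp2 were above the array median on only 1 endothelial array each, so they too needed the pericyte arrays to pass. Insr, above it on only 1 pericyte array, needed the endothelial arrays in the same way. The same limit applies to the calls of Lrp1, Stc2, Igf2bp2 and Insr. Of receptors and carriers outside the family, 4 were tested, and 3 were called higher and 1 lower in pericytes in both genotypes. Only Igf2r was above the array median often enough in both cell types to pass through either. Lrp1, a scavenger receptor that has been described as a receptor of IGFBP-3, read 10.14 in pericytes and 7.09 in endothelial cells of wild-type tumours. Its log2 differences, set against endothelial values near the floor, were 3.05 in wild type and 2.89 in knockout. In the fit over every probe their limma adjusted p was 3.39e-12 and 7.07e-12. Igf2r, which takes up and degrades IGF-II, differed by 1.39 and 1.18, and Sort1, a sorting receptor, by 0.61 and 0.95. Insr, the insulin receptor, was lower in pericytes by values of -0.56 and -0.65. The median of the list was 1.00 in wild type and 1.07 in knockout, beside medians of -0.03 and -0.04 for all genes. It includes Sort1, Lrp1 and Insr, so it is not read as a shift of the list.

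Of 8 proteases and inhibitors that act on binding proteins, 4 were called higher and 1 lower in wild-type pericytes, and 5 and 1 in knockout. Of the higher calls, Mmp2 and Htra3 had to be higher, and Stc2 in knockout needed the pericyte arrays to pass the filter. Mmp2, a matrix metalloproteinase, differed by 3.30 and 3.34 log2 units, and Timp1, an inhibitor of metalloproteinases, by 2.91 and 2.83. The serine proteases Htra3 and Htra1 differed by 1.76 and 1.11 in wild type and by 1.98 and 1.04 in knockout. Stc1, which encodes a stanniocalcin, a family of secreted pappalysin inhibitors, was lower in pericytes, at -2.13 and -1.87. Stc2 made the change in count, at 0.57 in wild type and 0.88 in knockout (limma adjusted p = 0.125 and 0.0168 in the fit over every probe). Pappa, which encodes the pappalysin that cuts IGFBP-4, was on the array but did not pass the filter on dim probes. The median of the list was 0.84 in wild type and 0.96 in knockout. It includes Mmp2, Htra3 and Stc2, so it is not read as a shift of the list.

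Below the receptor, 19 adaptors and PI3-kinase and AKT pathway genes were tested, and 4 were called higher and 6 lower in wild-type pericytes, 5 and 6 in knockout. The higher calls include Irs1 and Irs2, so those left, 2 and 3, are not above the shares of all genes. The 6 lower calls include Foxo1, which passed the filter only through the endothelial arrays and adds nothing to that count. They also include Akt1, above the array median on only 3 pericyte arrays, which needed the endothelial arrays to pass and adds nothing either. The insulin receptor substrates Irs1 and Irs2 were higher in pericytes, by 1.21 and 1.28 log2 units in wild type and by 1.32 and 1.40 in knockout. The catalytic subunit gene Pik3cb and the regulatory subunit gene Pik3r3 were lower, at -1.61 and -1.19 in wild type and -1.40 and -0.93 in knockout. The medians of the list, with Irs1, Irs2, Foxo1 and Akt1 included, were 0.01 and -0.03.

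Of 3 tested genes of Igf2 mRNA binding and its imprinted neighbour, 2 were called higher in wild-type pericytes and 1 in knockout. H19, the noncoding RNA expressed from the maternal chromosome beside Igf2, was higher in pericytes by 1.08 and 0.99 log2 units (limma adjusted p = 2.15e-06 and 5.96e-06 in the fit over every probe). Igf2bp2, which encodes an Igf2 mRNA binding protein, was called at 0.30 in wild type and not called at 0.24 in knockout. In the fit over every probe the limma adjusted p was 0.0493 and 0.114. The median of the 3 genes, which includes H19 and Igf2bp2, was 0.30 and 0.24 and is not read as a shift. Of 5 tested genes of the CCN family, matricellular proteins with an IGFBP-like module, 3 were called higher in wild-type pericytes and 2 in knockout. Wisp1 differed by 1.64 and 1.81 and Wisp2 by 0.50 and 0.63, while Cyr61 was called at 0.42 in wild type and not at 0.09 in knockout (adjusted p = 0.631). The median of the family was 0.42 and 0.27. It includes Wisp2 and Nov, which both passed the filter only through pericytes, so it is not read as a shift.

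None of these list genes was called by limma between knockout and wild type in either cell type or for the difference between the cell types. In pericytes the values with the smallest unadjusted p in each list were 0.35 for Sort1 (adjusted p = 0.320) and -0.20 for Igf2r, 0.37 for Adamts1 (adjusted p = 0.662) and -0.25 for Htra1, 0.20 for Grb2 (adjusted p = 0.622) and -0.25 for Pik3ca, 0.12 for Igf2bp2 and -0.12 for H19, and -0.24 for Cyr61 and 0.19 for Wisp1. In endothelial cells the corresponding values were 0.08 for Insr and 0.01 for Sort1, -0.17 for Htra1 and -0.18 for Adam12, -0.18 for Foxo3, 0.19 for Igf2bp1 and 0.18 for Igf2bp2, and 0.09 for Cyr61 and -0.05 for Nov, with adjusted p of 1.00 for each.

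The genes most like each member over the 16 arrays were named by Pearson's r of log2 intensity, as a description; the points share the 2 cell types, which set most of each value. Igfbp3 was followed most closely by Gprc5b, Notch4 and F2rl3, with r of 0.993, 0.993 and 0.991. Notch4, an endothelial Notch receptor, read 10.12 to 10.49 on endothelial and 6.91 to 7.67 on pericyte arrays. Igfbp5 was followed by the collagen gene Col5a3, Iqgap2 and Ccdc80, with r of 0.978, 0.978 and 0.977. Igfbp4 was followed by D930038M13Rik (0.985), the chemokine gene Ccl7 (0.984) and LOC380655 (0.983). The likeness was lower for Igf1, with C130080K17Rik at 0.944, 9530073A13Rik at 0.934 and Fgl2 at 0.930, and for Igfbp7, with Agpat4 at 0.925 and Anxa6 at 0.924.

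Igfbp6 was followed by Rprml, EG666387 and Gpr153, with r of 0.994, 0.984 and 0.981. Rprml also came first for Igfbp6 when each value was taken as its deviation from the group mean, with r = 0.987, ahead of Anpep at 0.932 and Crim2 at 0.928. On pericyte arrays 1 to 4 Rprml read 7.95, 7.95, 7.83 and 7.43 in wild type and 8.00, 7.49, 7.53 and 7.89 in knockout, low on the same 3 arrays as Igfbp6. Anpep, the aminopeptidase CD13, read 8.51, 8.70, 8.44 and 8.15 in wild type and 8.81, 8.07, 8.20 and 8.59 in knockout, again lowest on those 3 arrays.

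By the same measure of deviations, the closest genes were LOC100045668 (0.914), Ndufa4 (0.892) and Tbrg1 (0.872) for Igf1 and LOC100044948 (0.861), Sdc3 (0.856) and 5330431N19Rik (0.850) for Igfbp3. They were Tdrd3 (0.861), Pfkfb2 (0.766) and Unc5c (0.754) for Igfbp4 and mKIAA0282 (0.852), Slc6a8 (0.824) and Mgst1 (0.784) for Igfbp5. For Igfbp7 they were 0610009B22Rik (0.881), Tmem214 (0.861) and Gpr176 (0.858).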

How the data were processed

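RNA of 16 sorted samples was read on Illumina MouseWG-6 v2.0 bead arrays, 1.6 µg of cRNA on each, after amplification by Ovation Pico WTA V2, per the labels' protocols. The deposited table holds log2 intensities of 24040 probes that the authors normalised. The submitters' processing notes name GenomeStudio and lumi, but the sources used here do not give versions, background correction, transform or the method between arrays. The repository's copy was checked and departed from it by 5.00e-09 at most. Values ran from 6.58 to 14.5.

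A probe was kept when it lay above its array's median on at least 4 of 16 arrays (14632 probes), and a gene was represented by its kept probe with the highest mean (2904 genes had several). One mean per group was estimated from all arrays by limma 3.58.1 under R 4.3.3 (12 residual and 5.58 prior degrees of freedom, two-sided, Benjamini-Hochberg over 10426 genes, threshold 0.05), with 5 contrasts, and once more with every probe as a feature. The script was tested on simulated data. The number of arrays limits the precision. Replicate numbers were taken from the labels. Deviations of same-numbered arrays correlated at -0.18 to 0.45 between genotypes. Between cell types they correlated at 0.035 to 0.43 in wild type and at 0.032 to 0.22 in knockout. The labels do not say that a number marks a shared tumour, so the main fit did not pair arrays.

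Named were all IGF genes with every probe, up to 4 called genes of each pathway list and contrast (or the pair with the smallest p where none was called), and the 3 genes most like each tested member by r and by r of deviations; some of these results are not reported here. The members and lists were chosen with earlier results of these data known. All 9 members had an entry in the RefSeq promoter table of GRCm38.p6, and 250 bases before the start were searched. Alternatives covered the filter, quantile normalisation, the mean of probes, a trended and robust variance, 2-group fits, a replicate block, a keratinocyte covariate and each array left out.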

Additional observations from a re-analysis of the deposited data

Results flagged for a closer look

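In 3 of the 24 groups of 4 arrays examined, 6 genes in 4 groups each, 1 array stood apart by a gap to its nearest neighbour that, as a share of the group's whole range, passed Dixon's 95% critical value, where chance gives about 1 in 20 groups. Igf1 in knockout pericytes was lowest on array 3, at 9.60, with the others between 9.98 and 10.03. Igfbp5 in knockout endothelial cells was highest on array 4, at 7.49, with the others between 7.10 and 7.16, all close to the array median. Igfbp6 in wild-type pericytes was lowest on array 4, at 7.30, with the others between 8.02 and 8.11. That array also had the highest mast cell marker mean of its group, 10.32, and the lowest fibroblast marker mean, 10.07.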

How the results depend on the processing

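The array number, the normalisation of unstated kind and values near the floor of the scale limit these results, and the cause of each change below was not tested unless given. The 6 member calls between cell types stood in wild type under every alternative run there (all but the keratinocyte covariate, used where knockout pericytes enter) and in knockout under all but the keratinocyte covariate and the fit without knockout pericyte arrays 2, 3 and 4 (chosen after seeing the data, as was leaving out wild-type pericyte arrays 1 and 4 and fitting every probe), each with 4 of 6. Lost were Igf1, at 0.96 and 1.06, and Igfbp7, at -0.04 and -0.18. No member was called between genotypes under any alternative.

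Genotype differences that turned sign were not called. With the covariate they were, in pericytes, 0.25 for Igfbp3, 0.39 for Igfbp6 and 0.18 for Igfbp7, and, for the difference of effects, 0.39 for Igfbp6 and 0.25 for Igfbp7. Without knockout arrays 2, 3 and 4 they were 0.14, 0.31 and 0.10 in pericytes and 0.31 and 0.18 for the difference of effects, in the same order. Without wild-type arrays 1 and 4, Igf1 was -0.43 and Igfbp3 0.44 in pericytes, and Igf1 -0.29 for the difference of effects. With the mean of probes, Igfbp7 was 0.041 for the difference of effects. With single arrays left out, the turning values ranged in pericytes from -0.13 to 0.25 for Igf1, -0.20 to 0.25 for Igfbp3 and -0.27 to 0.045 for Igfbp6, in endothelial cells from -0.021 to 0.13 for Igfbp5 and -0.020 to 0.013 for Igfbp6, and for the difference of effects from -0.13 to 0.32 for Igfbp3 and -0.27 to 0.045 for Igfbp6.

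The count of all genes called between genotypes in pericytes was 33. It was 14 with no filter, 7 with a stricter filter, 16 with a trended and robust variance, 16 with every probe a feature, and 1 each with only those arrays, with the covariate and without knockout arrays 2, 3 and 4. With single arrays left out it ranged from 3 (without knockout pericyte array 3) to 130 (without knockout pericyte array 1). In endothelial cells it was 1, 4 with every probe and 1 to 2 with single arrays left out. For the difference of effects it was 2, falling to 1 with no filter, with the covariate, without knockout arrays 2, 3 and 4 and without wild-type arrays 1 and 4, and ranging from 1 to 53 (without knockout pericyte array 1) with single arrays left out. Between cell types in knockout it was 3743, with 2467 under the stricter filter, where only 5889 genes were tested, 1999 with the covariate, 2207 without knockout arrays 2, 3 and 4, 6366 with every probe, and 3348 to 3939 with single arrays left out. In wild type it was 3772, 6220 with every probe and 3392 to 3827 with single arrays left out.

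Arrays were not paired in the main fit. With the replicate block across all 4 groups, 40 genes were called between genotypes in pericytes and every member kept its call. Igf1 stood at 0.77 in wild type (limma adjusted p = 0.00888). In wild type every pericyte array correlated best with the endothelial array of its own number. In knockout, pericyte arrays 1, 2 and 3 did so, and array 4 was closest to endothelial array 3. This is a hint from the data only, and pairing within a genotype was not fitted.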
